A study of Mus musculus with 18 samples.

Results

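The measurements described here ask whether mouse embryonic stem cells of 2 lines changed their RNA differently over the same 8 h stimulus. Of 18 arrays in the series, 12 enter: 3 arrays labelled KO and titled 8h, 3 labelled KO and titled 0h, 3 labelled Rescue and titled 8h and 3 labelled Rescue and titled 0h. For each gene the value is an interaction, the change on the KO arrays (8h minus 0h) minus the change on the Rescue arrays (8h minus 0h), each taken within a slide. A positive interaction can arise from a larger rise or a smaller fall on the KO arrays, so genes were also separated by whether the lines differed at 8h, at 0h or at both times.

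Both lines are Esrrb knockout cells of strain 129SV that express Raf-ErT2, and by the labels the KO line received an empty vector and the Rescue line an Esrrb transgene. All of them had first grown in serum with LIF and the GSK3 inhibitor Chir99021 at 2 uM. For the last 24 h before treatment the medium held serum, LIF and 250 nM of the FGF receptor inhibitor PD173074. The treatment text gives 250 nM 4-hydroxytamoxifen (4OHT) for the 8h samples and no treatment for the 0h samples. Titles and source names disagree, however: arrays titled 8h carry a source name that adds 2 h of a Mek inhibitor, and those titled 8h2h carry one that lacks it. Groups follow the titles. Which label is right was not tested, and the signal of the ERK feedback gene Dusp6 under each title is given further on. The labels do not say how many clones each line represents or whether letters a, b and c were separate cultures, so the spread behind every p is that between arrays and may be technical.

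Raf-ErT2 is a Raf kinase fused to a hormone-binding domain that 4OHT switches on. Active Raf phosphorylates Mek, Mek phosphorylates ERK, and ERK then induces immediate-early transcription factors together with its own inhibitors. In mouse embryonic stem cells ERK signalling moves cells out of the naive state, in which Nanog, Klf4, Tfcp2l1 and the orphan nuclear receptor Esrrb sustain one another's expression, and primes them for formative, endodermal or trophoblast gene expression.

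Signal is given as log2 of the processed spot intensity minus the 75th percentile of its own array, so each level is relative to that array and only differences of 1 gene between arrays are read. Across the 12 arrays the 75th percentile ran from 297 to 765 intensity units, and replicates correlated at r = 0.983 to 0.996 across genes. Dim genes could be read less far down on the KO arrays: their lowest signal above background was 13.5 to 30.3 intensity units, against 6.44 to 10.6 on the Rescue arrays. Each slide held every group, with a group in the same place each time, and position on the slide cannot be told apart from group.

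Pou5f1 and Sox2, defining transcription factors of pluripotent cells, were above background on all 12 arrays. Esrrb itself, read by 1 probe, gave 4.09, 3.50 and 3.65 on the KO 8h arrays and 5.08, 4.74 and 5.27 on the KO 0h arrays, against 2.15, 1.75 and 1.84 on the Rescue 8h arrays and 4.13, 4.21 and 4.87 on the Rescue 0h arrays. All 12 arrays were above background, and every KO array was higher than the Rescue array of its slide and time. The label KO and this probe thus go against each other; where this probe sits relative to the deletion was not determined, and every direction below rests on the labels as given. Its signal fell in both lines, with changes of -1.28 ± 0.20 in KO and -2.49 ± 0.20 in Rescue (log2 ± SE). The interaction was 1.21 ± 0.29, with a limma adjusted p of 0.0667, outside the threshold of 0.05 used throughout.

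Of 15775 genes tested, 479 had an interaction with a limma Benjamini-Hochberg adjusted p below 0.05, which is 3.04% of them. The interaction was higher in KO for 208 genes (1.32%) and lower for 271 (1.72%), and each of the 479 had one sign on the 3 slides from which it was called, as did 7121 of all genes tested. Over genes read in all 4 groups the split was 170 higher and 173 lower, and without scaling between arrays, which called 234 genes, it was 67 higher and 167 lower. With normexp background correction it called 464, of which 278 were among the 479. The median size was 1.48 on the log2 scale, 397 genes exceeded 2-fold and 136 exceeded 4-fold. In 340 of the 479, at least 1 array of each group read the gene above background; in the other 139 a group went unread, and there the fitted value is not a measured fold. The median interaction of all genes was 0.013. Just inside the threshold stood Nanog (1.14), Ppp1r3g (-2.44) and Tmem74b (-1.28), and just outside it Egfl6 (1.66), Xbp1 (0.67) and Cdc14a (-0.71).

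The number of calls rested on all 3 slides. Leaving out slide a, b or c gave 0, 136 and 18 calls with limma, and without slide a 1482 genes still had an unadjusted p below 0.05. Leaving out 1 array gave 146 to 587. The count moved by more than 1.5 times without 9 of the arrays: 215 and 297 without KO 8h a and c, 192 and 273 without KO 0h a and c, 158, 146 and 202 without Rescue 8h a, b and c, and 256 and 301 without Rescue 0h a and b. Of 77 called genes considered by name, 30 kept an adjusted p below 0.05 with each single array left out. The number of these 12 omissions that kept the call is given with each of the 77 that is described below. The same genes were fitted in every omission, so this number does not test how a gene entered. Normexp background correction moved the interaction by over 1.5 times in 33 of the 77, and its value is given beside each such gene read in all groups.

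The line difference itself was called for 4344 genes at 8h (27.5% of those tested), 1793 higher on the KO arrays (11.4%) and 2551 lower (16.2%). At 0h it was called for 3748 genes (23.8%), 1431 higher (9.07%) and 2317 lower (14.7%). Without the filter on dim probes the balance turned, to 4305 higher and 2504 lower at 8h and 3965 higher and 2231 lower at 0h. Among the 479 interaction genes, 207 differed between the lines at 8h only, 105 at 0h only, 81 at both times with one sign and 86 at both times with opposite signs. None had a line difference at neither time, which the thresholds fix in advance. The interaction is the 8h difference minus the 0h difference, so a called one needs at least 1 of them large enough to be called. A difference called at one time and not at the other is not by itself a change, but for these genes the change was tested. In 167 of the 207 genes with a difference at 8h only, the 95% interval of the 0h difference lay within 1 log2 unit of 0, and in 86 of the 105 with a difference at 0h only the 8h interval did. The gap between the lines was wider at 8h in 314 of the 479 and narrower in 165. This split mostly restates the classes, since all 207 genes at 8h only were wider and all 105 at 0h only narrower. In the 86 of opposite signs, 51 were wider and 35 narrower, which there compares absolute sizes.

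**Figure D1:**
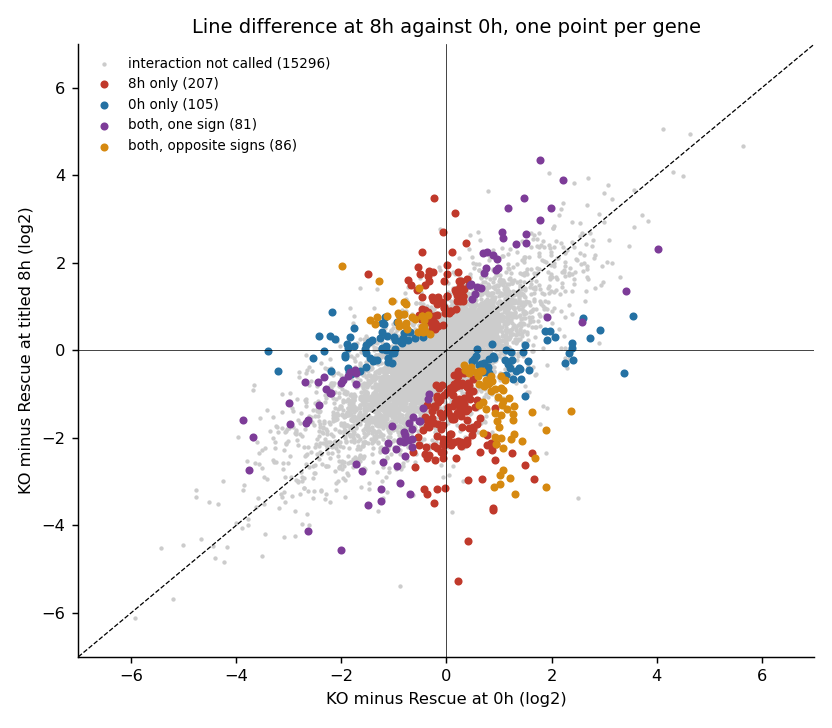
Each point is 1 of 15775 genes, with the KO minus Rescue difference at 0h on the horizontal axis and at titled 8h on the vertical axis, both in log2 units. The dashed line marks equal differences, so vertical distance from it is the interaction. Coloured points are the 479 called genes: 207 along the vertical axis differ at 8h only, 105 along the horizontal axis at 0h only, 81 lie in the quadrants of one sign and 86 in those of opposite signs.

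The changes behind the interactions ran in several ways. Over all genes tested, 4729 changed from 0h to 8h in KO (30.0%) and 5357 in Rescue (34.0%). Of these 15775 genes, 1475 rose and 1724 fell in both lines. Changes called only in KO were 685 rises and 801 falls, and those called only in Rescue were 895 rises and 1219 falls. Among the 208 genes with a higher interaction, 41 rose and 35 fell in both lines. Another 49 were called only in KO, as rises, and 63 only in Rescue, as falls. Among the 271 with a lower interaction, 67 rose and 17 fell in both lines. Another 55 were called only in KO, as falls, and 110 only in Rescue, as rises. The other 42 genes changed in opposite directions, 20 of them rising in KO and falling in Rescue and 22 the reverse. Over all genes tested 44 changed in opposite directions, so these 42 are nearly all of them. In this way 110 of 271 lower interactions were rises called on the Rescue arrays alone. Of these 110, 64 had a line difference at 8h only. For genes called only in KO or only in Rescue, the direction is fixed in advance by the called interaction. With a higher interaction, a called fall in KO needs a still larger fall in Rescue, which would be called too. Likewise a called rise in Rescue needs a still larger rise in KO. Lower interactions mirror this, so for these genes only the counts are observed.

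Lines that did not differ detectably at 0h and stood apart at 8h made up the most numerous class, 207 genes, of which 73 were higher and 134 lower in KO at 8h. The higher ones included Efr3b, which anchors a lipid kinase at the plasma membrane, and Wnt6, a secreted Wnt ligand. Efr3b read 4.05, 4.04 and 4.92 on the KO 8h arrays and -1.22, -1.07 and -1.09 on the KO 0h arrays, against 2.44, 2.56 and 2.79 on the Rescue 8h arrays and -0.80, -0.46 and -0.59 on the Rescue 0h arrays. It rose in both lines. At 8h every KO array lay above every Rescue array, and at 0h every KO array lay below, by a difference that was not called. Its interaction was 2.25 ± 0.26 (SE, limma adjusted p = 0.00705), 4.75-fold, and it passed in 12 of the 12 omissions. Wnt6 read 2.64, 1.86 and 2.65 on the KO 8h arrays and -1.21, -1.39 and -1.39 on the KO 0h arrays, against 0.82, 0.58 and 0.30 on the Rescue 8h arrays and -0.51, -0.90 and -1.57 on the Rescue 0h arrays. The 0h arrays of the lines overlapped and the 8h arrays did not. Its interaction was 2.15 ± 0.34 (adjusted p = 0.0172 in limma), which passed in 7 of 12 omissions.

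In 13 genes of this kind the signal rose in KO and fell in Rescue. Dnmt3a, a de novo DNA methyltransferase, read 1.02, 0.61 and 0.35 on the KO 8h arrays and -0.33, -0.21 and -0.80 on the KO 0h arrays, against -0.63, -0.99 and -0.87 on the Rescue 8h arrays and 0.099, -0.15 and -0.048 on the Rescue 0h arrays. Its change was 1.11 ± 0.15 in KO and -0.80 ± 0.15 in Rescue. At 8h the KO arrays were all higher, and at 0h they were all lower by a difference that was not called (-0.41 ± 0.15, limma adjusted p = 0.0879). The interaction of 1.91 ± 0.22 (adjusted p = 0.00705) passed in 12 of 12 omissions, and its 2 probes gave 1.41 and 1.91. Cphx1, a homeobox gene of the oocyte and early embryo, read -1.69, -2.18 and -1.74 on the KO 8h arrays and -2.41, -2.57 and -2.69 on the KO 0h arrays, against -4.28, -4.18 and -3.86 on the Rescue 8h arrays and -2.85, -2.31 and -2.85 on the Rescue 0h arrays. The lines overlapped at 0h, and at 8h the Rescue arrays lay far below the KO arrays. Its interaction was 2.12 ± 0.30 (adjusted p = 0.0113), passing in 12 of 12 omissions, and 1.17 with normexp.

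Among the rest of the higher group, Atp1a4, a sodium pump subunit of sperm, had an interaction of 2.45, kept in 6 of 12 omissions, and the testis protease Prss50 2.16, kept in 2. The interferon-inducible GTPase Gbp4 had 2.35, kept in 6 of 12, and lost its call with normexp, at 0.74. Tet1, which oxidises 5-methylcytosine, fell in both lines, with changes of -0.40 in KO and -1.22 in Rescue. Its interaction of 0.83 ± 0.18 (limma adjusted p = 0.0468) passed in 1 of 12 omissions and did not pass with normexp. Amn, an endocytic partner of cubilin, rose in KO and fell in Rescue, with an interaction of 1.18 ± 0.14 (adjusted p = 0.00705) that passed in 12 of 12 and was 0.64 with normexp. Meox1, a mesodermal homeobox gene, was above background on 0 of 3 KO 0h arrays, so its rise in KO is a bound, at least 9.77-fold, with an interaction kept in 12 of 12. On the KO 8h arrays it read -1.10, -1.61 and -0.74, against -4.46, -4.91 and -4.51 on the Rescue 8h arrays.

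The 134 genes lower in KO at 8h and not called at 0h included 64 that rose in Rescue alone. Card14, a scaffold that activates NF-kappaB, read -4.37, -4.45 and -4.97 on the KO 8h arrays and -4.18, -4.11 and -4.93 on the KO 0h arrays, against -2.26, -1.88 and -2.26 on the Rescue 8h arrays and -4.48, -4.10 and -5.20 on the Rescue 0h arrays. Only the Rescue 8h arrays stood out, and 3 of 3 of them were above background, compared with 2 KO 8h, 1 KO 0h and 2 Rescue 0h arrays. The interaction was -2.66 ± 0.24 (limma adjusted p = 0.00339), kept in 12 of 12 omissions, and -1.22 with normexp. Mks1, a protein of the ciliary transition zone, read 3.07, 3.53 and 3.54 on the KO 8h arrays and 1.77, 1.74 and 1.73 on the KO 0h arrays, against 5.28, 5.69 and 5.42 on the Rescue 8h arrays and 1.71, 1.93 and 1.19 on the Rescue 0h arrays. It rose in both lines, by 1.63 ± 0.18 in KO and 3.85 ± 0.18 in Rescue, and the 0h arrays of the lines overlapped. The 8h arrays did not. Its interaction was -2.22 ± 0.26 (adjusted p = 0.00705), kept in 12 of 12.

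Ackr3, a scavenging receptor for the chemokine CXCL12, went in opposite directions. It read -0.74, -0.22 and -0.34 on the KO 8h arrays and 0.32, 0.21 and 0.19 on the KO 0h arrays, against 1.47, 1.71 and 1.57 on the Rescue 8h arrays and 0.16, 0.25 and 0.20 on the Rescue 0h arrays. The 6 arrays at 0h lay within a narrow band, while at 8h the KO arrays were below it and the Rescue arrays above it. The interaction was -2.05 ± 0.18 (limma adjusted p = 0.00339), kept in 12 of 12 omissions, with a 0h difference of 0.035 ± 0.12 and a 95% interval of -0.25 to 0.32.

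A smaller set, 23 genes, fell in KO with no change called in Rescue. Smad3, a transducer of TGF-beta and Activin signals, read -1.02, -0.52 and -0.94 on the KO 8h arrays and 0.67, 0.59 and 1.23 on the KO 0h arrays, against 0.80, 0.84 and 1.09 on the Rescue 8h arrays and 1.18, 1.15 and 1.18 on the Rescue 0h arrays. The KO 8h arrays were the lowest of the 4 groups and did not overlap any other. Its interaction was -1.40 ± 0.25 (limma adjusted p = 0.0267), kept in 3 of 12 omissions. Cdkn1a, the cyclin-dependent kinase inhibitor p21, read 0.76, 0.49 and 0.59 on the KO 8h arrays and 1.72, 1.49 and 1.78 on the KO 0h arrays, against 2.15, 2.27 and 2.14 on the Rescue 8h arrays and 2.17, 2.12 and 1.84 on the Rescue 0h arrays. Again the KO 8h arrays stood alone at the low end. Its interaction was -1.18 ± 0.18 (adjusted p = 0.0147), kept in 11 of 12, and -0.79 as a mean of its probes. The ESCRT-I subunit gene Mvb12b fell in both lines, more so in KO, with -2.46, kept in 10 of 12, and its 2 probes ranged from -2.46 to -0.61.

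**Figure D2:**
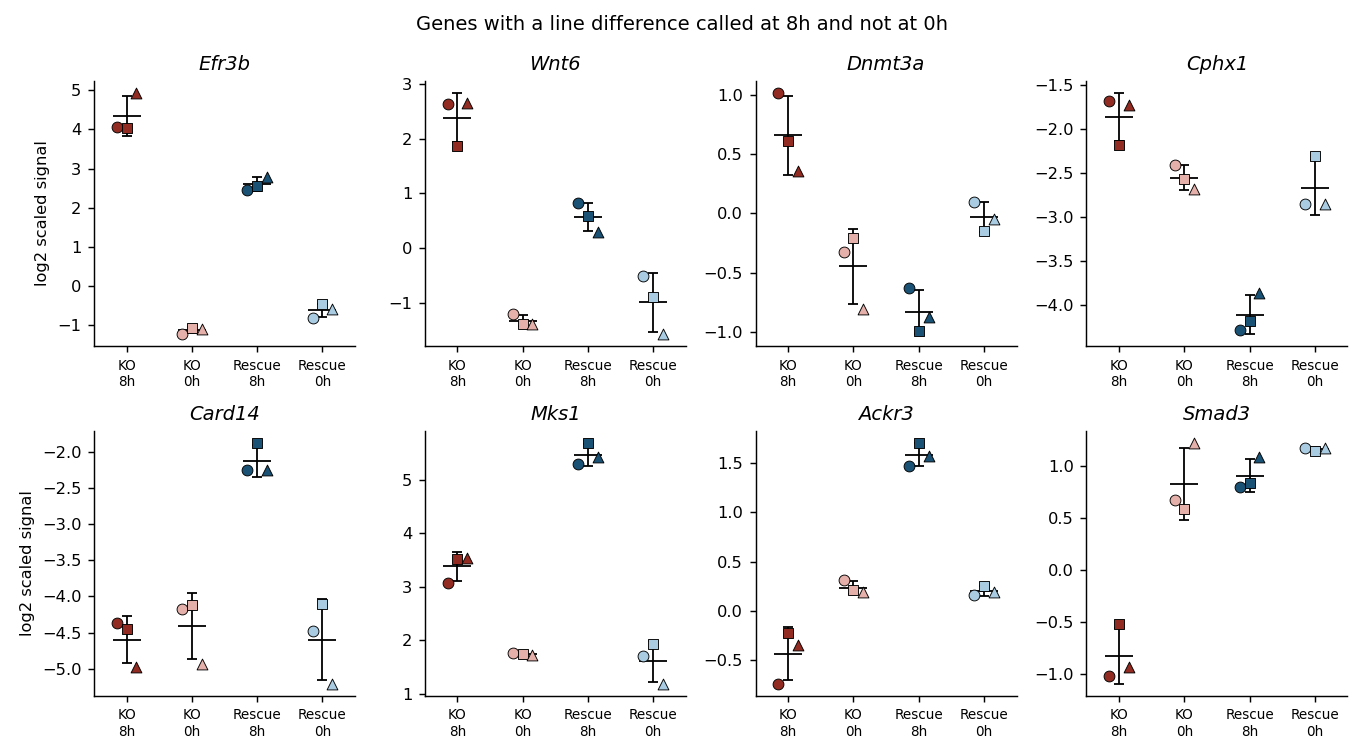
Log2 scaled signal of 8 genes whose lines differed at 8h and not at 0h, with 1 point per array for KO 8h, KO 0h, Rescue 8h and Rescue 0h. Circles, squares and triangles are slides a, b and c, the horizontal bar is the mean and the error bar the SD of 3 arrays. In the upper row KO 8h lies above Rescue 8h, and in the lower row below it.

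Several rises in Rescue began under background, where only bounds hold. In 59 of these 134 genes a group went unread, against 5 of the 73 higher ones. Ifi202b, an interferon-inducible gene, was read on 1 of 3 KO 8h arrays and on 0 of 3 arrays of either 0h group. In Rescue it rose at least 41.2-fold, reaching -0.40, -0.14 and -0.17. Apbb1ip, a Rap1 effector in integrin activation, was unread in 3 groups and rose at least 11.6-fold in Rescue, where it read -2.28, -1.81 and -2.09 at 8h. The interaction of Ifi202b was kept in 12 of 12 omissions and that of Apbb1ip in 5. Both genes entered the test only through the Rescue 8h arrays, where they are high, and the omissions cannot test that choice. Among dim but read genes, Dclk1, a microtubule-associated kinase, rose by 3.62 ± 0.34 in Rescue (limma adjusted p = 9.25e-05) and changed by 0.90 ± 0.34 in KO (adjusted p = 0.0774). Its interaction of -2.72 ± 0.48 (adjusted p = 0.0242) was kept in 3 of 12 omissions and was -1.40 with normexp, and its 4 probes ranged from -3.71 to -0.88. Pcsk2, a prohormone convertase, gave -2.19, kept in 2 of 12 and -1.38 with normexp, and the ErbB ligand Nrg1 -1.41, kept in 8.

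Promoters are shown for 4 described genes whose windows hold the letters TGANTCA, which include the AP-1 motif that ERK-induced Fos and Jun proteins bind. Of these genes, 3 had lower interactions and Ccdc160 a higher one, 1.95 ± 0.22 (limma adjusted p = 0.00705, kept in 12 of 12). Each window runs from 250 bases before to 50 after a RefSeq start in mouse GRCm38.p6, and matched 363 of the 479 genes. Capitals mark TGANTCA, searched on both strands, with N any base, so a marked stretch need not be the AP-1 motif itself. The Dclk1 window is at chr3:55461478-55461777 on the plus strand, that of Serpinb11, a serpin gene described further on, at chr1:107362064-107362363 on the plus strand, that of Msmo1, a sterol demethylation enzyme, at chr8:64733529-64733828 on the minus strand, and that of Ccdc160 at chrX:52790950-52791249 on the plus strand.
Dclk1: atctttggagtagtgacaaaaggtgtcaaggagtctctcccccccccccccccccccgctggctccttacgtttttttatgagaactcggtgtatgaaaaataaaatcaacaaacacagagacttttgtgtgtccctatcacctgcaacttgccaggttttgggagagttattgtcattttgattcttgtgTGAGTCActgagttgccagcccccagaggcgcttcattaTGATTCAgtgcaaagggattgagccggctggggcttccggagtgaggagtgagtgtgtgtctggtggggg
Serpinb11: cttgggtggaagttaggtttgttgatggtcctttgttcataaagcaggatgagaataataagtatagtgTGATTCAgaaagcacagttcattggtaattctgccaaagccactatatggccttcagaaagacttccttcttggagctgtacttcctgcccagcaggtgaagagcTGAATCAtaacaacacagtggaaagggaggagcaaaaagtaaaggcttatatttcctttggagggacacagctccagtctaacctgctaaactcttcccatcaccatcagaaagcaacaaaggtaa
Msmo1: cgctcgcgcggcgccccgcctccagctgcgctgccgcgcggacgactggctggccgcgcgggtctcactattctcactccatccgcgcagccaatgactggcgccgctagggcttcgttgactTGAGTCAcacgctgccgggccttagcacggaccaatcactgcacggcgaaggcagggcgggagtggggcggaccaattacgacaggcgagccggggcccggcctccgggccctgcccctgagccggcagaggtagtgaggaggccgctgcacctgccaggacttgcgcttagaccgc
Ccdc160: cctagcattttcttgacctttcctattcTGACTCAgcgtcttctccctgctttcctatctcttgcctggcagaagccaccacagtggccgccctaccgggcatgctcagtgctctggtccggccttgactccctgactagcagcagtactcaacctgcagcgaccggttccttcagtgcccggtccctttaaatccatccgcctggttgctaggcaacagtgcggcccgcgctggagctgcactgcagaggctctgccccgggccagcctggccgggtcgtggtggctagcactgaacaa

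The letters TGANTCA were in the window of 24 of 205 genes with a lower interaction (11.7%) and 5 of 158 with a higher one (3.16%). They were in 829 of 12483 tested genes with a window (6.64%) and in 2425 of all 27025 windows by gene (8.97%). Among the lower genes by class, the count was 16 of 111 for 8h only (14.4%), 1 of 32 for 0h only (3.12%), 3 of 21 for one sign (14.3%) and 4 of 41 for opposite signs (9.76%). The cyclic AMP response element TGACGTCA was in 4 of 205 lower and 6 of 158 higher genes, with 416 of 12483 over the tested genes (3.33%). The Esrrb motif TCAAGGTCA was in 0 of 205 lower and 0 of 158 higher genes, with 41 of 12483 tested genes (0.328%) and 0.466% of all windows. These counts describe letters in a short window and say nothing of binding, and no difference between them was tested.

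The 105 genes that differed at 0h only had no line difference called at 8h. In 58 of them the KO signal was lower at 0h, so the interaction was higher. Pou3f1, a POU factor of the formative and primed epiblast, read 3.44, 3.79 and 3.84 on the KO 8h arrays and -0.70, 0.22 and -0.37 on the KO 0h arrays, against 3.76, 3.58 and 3.60 on the Rescue 8h arrays and 1.42, 1.32 and 2.05 on the Rescue 0h arrays. At 0h the KO arrays were all lower and at 8h the lines overlapped. It rose by 3.97 ± 0.24 in KO and 2.05 ± 0.24 in Rescue, and the line difference at 8h was 0.044 ± 0.24 with a 95% interval of -0.50 to 0.59. The interaction was 1.92 ± 0.34 (limma adjusted p = 0.025), kept in 3 of 12 omissions.

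Gprc5c, an orphan G-protein-coupled receptor, rose in KO alone. It read 0.72, 0.39 and 0.66 on the KO 8h arrays and -1.51, -0.73 and -1.06 on the KO 0h arrays, against 0.62, 0.78 and 0.65 on the Rescue 8h arrays and 0.85, 0.68 and 0.93 on the Rescue 0h arrays. Only the KO 0h arrays were low. The interaction of 1.83 ± 0.27 (limma adjusted p = 0.0133) was kept in 12 of 12 omissions. Steap3, an iron reductase, fell in both lines, with changes of -1.09 ± 0.22 in KO and -2.85 ± 0.22 in Rescue, and its call was kept in 4 of 12. Esam, an adhesion molecule of endothelial junctions, rose by 4.71 ± 0.31 in KO and 2.39 ± 0.31 in Rescue, with 1 of 3 KO 0h arrays above background. Its interaction of 2.32 was kept in 2 of 12 and was 1.05 with normexp. Cdx2, the trophectoderm transcription factor, was unread on the KO 0h arrays, where its rise was at least 37.5-fold, and its call was kept in 5 of 12. At 8h Cdx2 read 0.83, 0.39 and 1.14 on the KO arrays and 0.81, 0.76 and 0.81 on the Rescue arrays, which overlapped. Apoe, the lipid carrier, fell in Rescue, with a change of -1.06 ± 0.12, and not detectably in KO, and its interaction was 0.96 ± 0.17 (adjusted p = 0.0234, kept in 5 of 12).

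In the other 47 genes of this class the KO signal was higher at 0h. Kit, the receptor for stem cell factor, read 0.15, -0.01 and 0.37 on the KO 8h arrays and 1.93, 1.11 and 2.27 on the KO 0h arrays, against 0.42, -0.28 and -0.47 on the Rescue 8h arrays and -0.47, -1.33 and -1.07 on the Rescue 0h arrays. It fell in KO and rose in Rescue, and the lines overlapped only at 8h. The interaction was -2.45 ± 0.37 (limma adjusted p = 0.0143), kept in 11 of 12 omissions and lost without Rescue 8h b. Inhbb, the beta B subunit of inhibin and Activin B, read -1.49, -2.17 and -3.18 on the KO 8h arrays and 0.98, 0.38 and 0.77 on the KO 0h arrays, against -2.00, -2.47 and -2.50 on the Rescue 8h arrays and -1.83, -1.61 and -1.62 on the Rescue 0h arrays. It fell in KO, with a change of -2.99 ± 0.32, and the Rescue change of -0.64 ± 0.32 was not called (adjusted p = 0.153). Its interaction of -2.35 ± 0.45 (adjusted p = 0.0317) was kept in 3 of 12.

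The surface antigen genes Ly6a and Ly6c2 rose in both lines from a higher KO level at 0h. Ly6a rose by 1.65 ± 0.38 in KO and 4.27 ± 0.38 in Rescue, Ly6c2 by 1.92 ± 0.36 and 4.30 ± 0.36 in the same order, and both calls held in 2 of 12 omissions. They belong to a family of closely similar genes, so their probes may share signal. Egr1, an immediate-early zinc finger factor that ERK induces, read 4.22, 4.07 and 4.16 on the KO 8h arrays and 1.53, 1.48 and 1.63 on the KO 0h arrays, against 4.60, 4.60 and 4.57 on the Rescue 8h arrays and -0.50, 0.16 and 0.24 on the Rescue 0h arrays. It rose in both lines. The lines overlapped at neither time, KO being higher at 0h and lower at 8h, but the 8h difference of -0.44 ± 0.17 was not called (adjusted p = 0.0857). The interaction was -2.02 ± 0.24 (limma adjusted p = 0.00705), kept in 12 of 12. Sox4, an SRY-box factor, rose in both lines from a higher KO level at 0h, with an interaction of -0.71 ± 0.14 (adjusted p = 0.0366), kept in 1 of 12 and not with normexp. Slc32a1, the vesicular GABA transporter, gave -2.56, kept in 4 of 12. Pdyn, the dynorphin precursor, gave -2.46, kept in 2 of 12, and lost its call with normexp, at -0.39, and with a common floor, at -1.06.

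Lines that differed at both times with one sign numbered 81. In this class 46 interactions were higher and 35 lower, and the gap widened in 56 genes and narrowed in 25. Nr0b1 (Dax1), a repressor in the naive network, read 4.58, 4.31 and 4.91 on the KO 8h arrays and 3.58, 3.43 and 3.60 on the KO 0h arrays, against 1.17, 1.46 and 1.40 on the Rescue 8h arrays and 1.46, 1.51 and 1.66 on the Rescue 0h arrays. The KO arrays were higher at both times, and the gap widened, with a rise in KO and no change called in Rescue. Its interaction was 1.26 ± 0.19 (limma adjusted p = 0.0144), kept in 11 of 12 omissions and lost without Rescue 8h a. Zfp42 (Rex1), a marker of the naive state, read 5.77, 5.61 and 5.85 on the KO 8h arrays and 6.20, 5.95 and 6.39 on the KO 0h arrays, against 3.88, 3.53 and 3.59 on the Rescue 8h arrays and 5.20, 5.05 and 5.41 on the Rescue 0h arrays. It fell in both lines, with changes of -0.44 ± 0.12 in KO and -1.55 ± 0.12 in Rescue, and KO was higher at both times without overlap. Its interaction was 1.12 ± 0.16 (adjusted p = 0.0134), kept in 12 of 12.

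Nanog, the naive homeobox factor, fell in both lines, with changes of -3.59 ± 0.18 in KO and -4.73 ± 0.18 in Rescue. Its interaction of 1.14 ± 0.25 (limma adjusted p = 0.0498) was kept in 1 of 12 omissions, and its 2 probes gave 1.14 and 0.015. With normexp it was 0.56 and did not pass. Mras, a Ras-family GTPase, did not change detectably in KO (-0.022 ± 0.19) and fell in Rescue (-2.03 ± 0.19), with an interaction of 2.01 ± 0.27 (adjusted p = 0.0111) kept in 12 of 12. The axon guidance ligand gene Ntn1 read -0.59, -1.72 and -0.81 on the KO 8h arrays and -1.44, -1.68 and -1.20 on the KO 0h arrays, against -5.37, -5.74 and -5.07 on the Rescue 8h arrays and -3.28, -3.28 and -3.06 on the Rescue 0h arrays. It fell in Rescue, to a level that 2 of 3 arrays read, and its interaction was 2.58 ± 0.27 (adjusted p = 0.00571, kept in 12 of 12). It was 1.03 with normexp and 1.18 with a common floor, where it did not pass. Gli2, a Hedgehog transcription factor, fell in both lines and less in KO, with 2.08 ± 0.24 (adjusted p = 0.00705), kept in 12 of 12, but its call was lost with normexp, at 0.60, and its size was 1.27 with a common floor. Foxd3, a forkhead factor of pluripotent cells, rose in KO alone and gave 0.89 ± 0.19 (adjusted p = 0.0455), kept in 1 of 12.

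Gaps that widened downward included Cited1, a transcriptional coregulator, which read 0.20, 0.51 and -0.31 on the KO 8h arrays and 0.076, -0.42 and -0.35 on the KO 0h arrays, against 3.88, 3.48 and 3.38 on the Rescue 8h arrays and 1.09, 0.96 and 0.98 on the Rescue 0h arrays. It rose in Rescue and not detectably in KO, and the KO arrays were lower at both times. The interaction was -2.20 ± 0.26 (limma adjusted p = 0.00705), kept in 12 of 12 omissions. Timp2, an inhibitor of matrix metalloproteinases, fell in both lines and more in KO, with -2.04 ± 0.31 (adjusted p = 0.0147), kept in 11 of 12 and lost without Rescue 8h b. Emp2, a tetraspan membrane protein, fell in KO only, with -1.94 ± 0.28 (adjusted p = 0.0123), kept in 12 of 12, and -0.90 with normexp.

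Gaps that narrowed included Krt18, the simple-epithelial keratin, which read 5.07, 5.45 and 5.47 on the KO 8h arrays and 3.05, 3.27 and 2.62 on the KO 0h arrays, against 7.22, 7.39 and 7.34 on the Rescue 8h arrays and 6.70, 6.73 and 6.56 on the Rescue 0h arrays. It rose in both lines, more in KO, and the KO arrays stayed below the Rescue arrays. Its interaction was 1.70 ± 0.22 (limma adjusted p = 0.00976), kept in 12 of 12 omissions. Dusp4, an ERK phosphatase, behaved in the same order, at -0.51 ± 0.15 at 8h and -1.72 ± 0.15 at 0h, with an interaction of 1.22 ± 0.21 (adjusted p = 0.0216), kept in 5 of 12 and lost with normexp, at 0.78. Cobl, an actin nucleator, was higher in KO at both times and fell more there, with -1.69 ± 0.29 (adjusted p = 0.0212), kept in 5 of 12. She, an SH2-domain adaptor, fell in KO only, with -1.94 ± 0.24 (adjusted p = 0.00866), kept in 12 of 12.

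**Figure D3:**
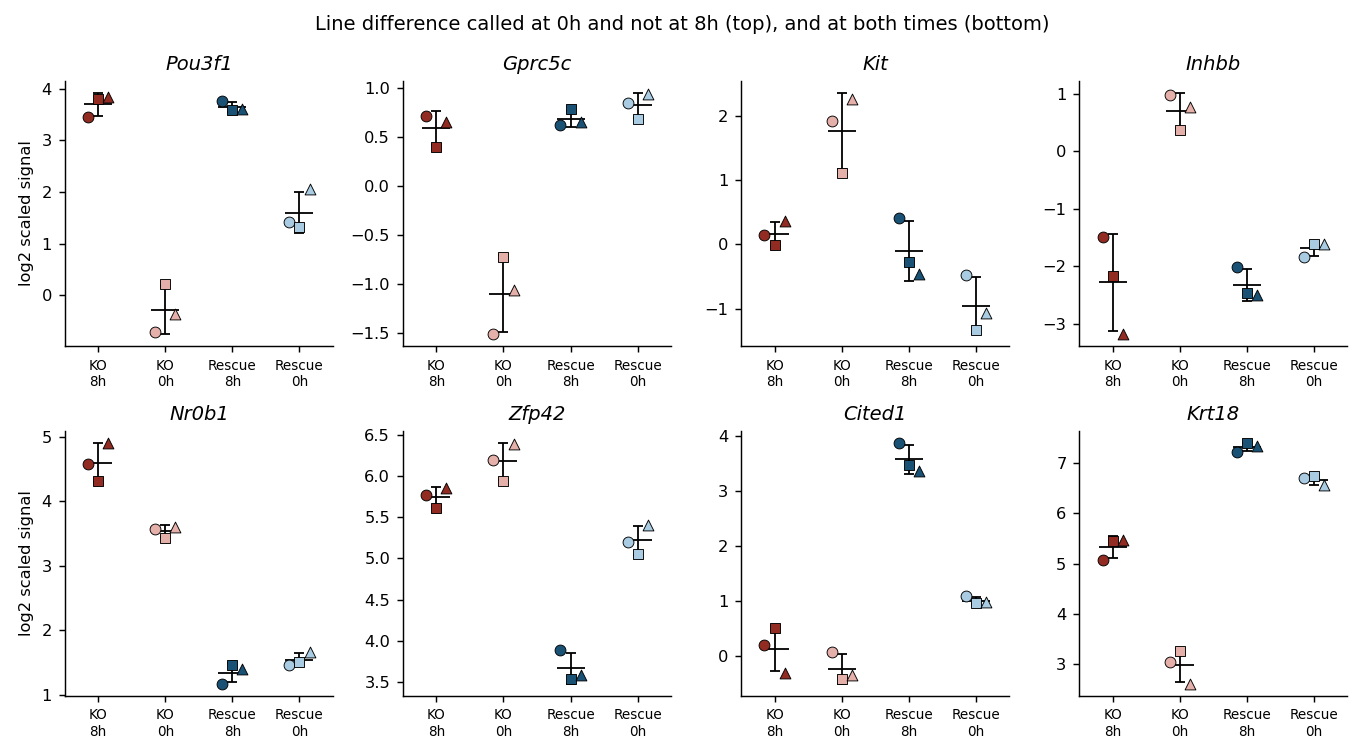
Log2 scaled signal per array for 4 genes whose lines differed at 0h and not at 8h (upper row) and 4 whose lines differed at both times with one sign (lower row), in the order KO 8h, KO 0h, Rescue 8h, Rescue 0h. Circles, squares and triangles are slides a, b and c, with the mean and SD of 3 arrays. In the upper row KO 8h and Rescue 8h share a level, while Krt18 keeps a difference of -1.98 at 8h.

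The lines differed with opposite signs in 86 genes, with 31 higher and 55 lower interactions. This count changed with the treatment of dim signals, being 55 with a common floor under all arrays, 42 with normexp background correction and 56 over genes read in all groups; in 26 of the 55 lower genes a group went unread. Skor1, a transcriptional corepressor, read 1.84, 1.53 and 1.82 on the KO 8h arrays and -2.86, -2.06 and -3.06 on the KO 0h arrays, against 0.046, 0.24 and 0.16 on the Rescue 8h arrays and -1.47, -1.56 and -1.13 on the Rescue 0h arrays. KO was below Rescue at 0h and above it at 8h, with no overlap at either time. The interaction was 2.86 ± 0.35 (limma adjusted p = 0.00805), kept in 12 of 12 omissions, and its 2 probes gave 2.86 and 2.40. Cdc42ep1, an effector of the GTPase Cdc42, rose by 4.36 ± 0.17 in KO and 2.21 ± 0.17 in Rescue, and its interaction of 2.15 ± 0.24 (adjusted p = 0.00705) was kept in 12 of 12. Lin28a, an RNA-binding regulator of let-7, fell in Rescue only and gave 0.85 ± 0.14 (adjusted p = 0.02), kept in 6 of 12.

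In the other direction the 2 lowest interactions among genes read in every group belonged to Ano1, a calcium-activated chloride channel, and Prkg2, a cGMP-dependent kinase. Ano1 read -4.00, -3.42 and -2.92 on the KO 8h arrays and -3.33, -4.49 and -3.11 on the KO 0h arrays, against -0.11, -0.12 and -0.29 on the Rescue 8h arrays and -5.34, -4.76 and -4.74 on the Rescue 0h arrays. Its signal was near the limit in 3 groups, with 2 of 3 arrays of each 0h group above background, and rose by 4.77 ± 0.35 in Rescue. The interaction was -4.57 ± 0.49 (limma adjusted p = 0.00631), kept in 12 of 12 omissions, and -2.63 with normexp. Prkg2 gave -4.07 ± 0.35 (adjusted p = 0.00339), with the same pattern, kept in 12 of 12, and -1.96 with normexp. The podosome adaptor gene Sh3pxd2b was above background on all 12 arrays and read -2.76, -2.65 and -3.21 on the KO 8h arrays and -2.49, -2.42 and -2.21 on the KO 0h arrays, against -0.87, -0.97 and -1.13 on the Rescue 8h arrays and -3.15, -3.16 and -2.89 on the Rescue 0h arrays. It was higher in KO at 0h and lower at 8h, without overlap. Its interaction was -2.58 ± 0.24 (adjusted p = 0.00339), kept in 12 of 12, and -1.64 with normexp.

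Also in this group were Pla2g4e, a cytosolic phospholipase A2, at -3.03 (kept in 12 of 12), and Tgfbi, a matrix protein that TGF-beta induces, at -2.55 (kept in 9). Elovl7, a fatty acid elongase, fell in KO, with a change of -1.13 ± 0.23, and rose in Rescue by 1.16 ± 0.23. Its interaction of -2.29 ± 0.33 (limma adjusted p = 0.0126) was kept in 12 of 12 omissions and was -1.36 with normexp. Serpinb11, whose promoter stands above, was read on 3 of 3 Rescue 8h arrays, on 1 of 3 KO 0h arrays and on none of the others, so its rise in Rescue is a bound, at least 5.78-fold. Its interaction was kept in 12 of 12, and it was lost with a common floor, at -0.92. Serpinb11 too entered the test only through the Rescue 8h arrays, which the omissions cannot test.

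Genes of the naive network gave 4 higher and 0 lower interactions among 23 tested, Nr0b1, Zfp42, Nanog and Mras, set against 1.32% and 1.72% of all genes. The median interaction was 0.29. At 8h 17 of the 23 were higher in KO and 2 lower, with 11.4% and 16.2% over all genes, and at 0h 16 were higher and 2 lower, with 9.07% and 14.7%. Other naive factors did not pass. Klf4 gave -0.033 ± 0.18 (limma adjusted p = 0.95, 95% interval -0.43 to 0.37), with changes of -2.22 in KO and -2.19 in Rescue. Tfcp2l1 gave 0.77 ± 0.35 (adjusted p = 0.337) and Tbx3 -0.92 ± 0.41 (adjusted p = 0.324). Of 12 core pluripotency genes 2 were higher, Foxd3 and Lin28a, and 0 lower, while Pou5f1 gave -0.32 ± 0.22 (adjusted p = 0.545) and Sox2 -0.19 ± 0.14 (adjusted p = 0.588).

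The formative and primed epiblast list had the highest median of 23 lists, 0.80 over 19 genes. Pou3f1 and Dnmt3a were called higher and Sox4 lower, beside 1.32% higher and 1.72% lower over all genes. Fgf5, a growth factor of the formative epiblast, was unread on the KO 0h arrays and gave an adjusted p of 0.132 in limma. Otx2, a head-patterning homeobox factor, gave 0.47 ± 0.37 (adjusted p = 0.614). The methyltransferase Dnmt3b, which has 3 probes, gave 1.20 ± 0.32 (adjusted p = 0.0975). Of 8 DNA methyltransferase and TET genes, Dnmt3a and Tet1 were higher and 0 were lower, with a median of 0.51, beside the same 1.32% and 1.72%. Dnmt3a is counted in both lists. The calls of Sox4 and Tet1 were each kept in 1 of 12 omissions and lost with normexp.

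ERK feedback and immediate-early genes gave 1 higher and 2 lower interactions of 30, with 1.32% and 1.72% over all genes, and a median of -0.067. Dusp4 was higher, and Egr1 and the related factor Egr3 were lower. Dusp6 and Spry4 encode feedback inhibitors and Myc a growth regulator. Their interactions were 0.27 ± 0.34 (limma adjusted p = 0.76), -0.81 ± 0.27 (adjusted p = 0.175) and 0.17 ± 0.18 (adjusted p = 0.715). Dusp6 read 4.64, 4.56 and 4.56 on the KO 8h arrays and 2.37, 2.30 and 2.34 on the KO 0h arrays, against 4.64, 4.60 and 4.78 on the Rescue 8h arrays and 2.18, 2.46 and 3.44 on the Rescue 0h arrays. It rose in both lines, by 2.25 ± 0.24 in KO and 1.98 ± 0.24 in Rescue, and the 8h arrays of the lines overlapped. On the arrays titled 8h2h, Dusp6 read 0.057, 0.36 and 0.10 in KO and 0.15, 0.61 and 0.52 in Rescue, below every array titled 8h or 0h. The AP-1 subunit gene Fosl1 gave -1.66 ± 0.75 (adjusted p = 0.329), and it read -4.03, -1.84 and -4.38 on the KO 0h arrays, slide b being the highest. Among 20 EGF and FGF ligands and receptors, Nrg1 and Ereg, both ErbB ligands, were lower and 0 were higher. Egr3, Ereg and Col4a2 are named here as called list members, chosen after their values were seen.

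Of 18 trophoblast genes 3 were higher, Cdx2, Krt18 and Tfap2a, and 0 lower, against 1.32% and 1.72% of all genes, with a median of -0.10. The Tfap2a call was kept in 10 of 12 omissions, and its interaction of 1.24 was 0.65 with normexp. Of the 18, 4 went unread on the KO 0h arrays and 1 on the Rescue 0h arrays. Their summed signal (log2 scaled) was 5.99 to 6.26 on KO 8h and 4.56 to 5.03 on KO 0h arrays, against 8.23 to 8.32 on Rescue 8h and 7.58 to 7.74 on Rescue 0h arrays. The sum was taken on the linear scale, so bright members such as Krt18 weigh most. It does not stand for the 18 genes alike. In such bulk samples fewer cells of a type and less RNA per cell cannot be told apart, and the part of any such cells in the interactions was not tested. Primitive endoderm genes split, 3 higher (Lrp2, Amn, Apoe) and 2 lower (Cited1, Col4a2) of 23, and fibroblast genes gave 1 higher (Thy1) and 1 lower (Col5a1) of 10, beside 3.04% called in either direction over all genes. Of these calls, Lrp2 was kept in 2 of 12 omissions, Thy1 in 1 and Col5a1 in 1. Gata6, a primitive endoderm factor, gave 0.53 ± 0.41 (limma adjusted p = 0.597), and the mesodermal gene T was unread at 0h in both lines. Sterol synthesis genes had 0 higher and 2 lower of 21, with 1.72% lower over all genes. These were Msmo1 at -0.96 ± 0.15 (adjusted p = 0.0172, kept in 8 of 12) and the sterol sensor Insig1 at -0.73 ± 0.16 (adjusted p = 0.0491, kept in 2 of 12 and lost with normexp, at -0.41).

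Of 23 actin cytoskeleton and SRF target genes 0 were called in the limma interaction test, where 3.04% of all genes were. In KO 16 of them were lower at 8h and 15 at 0h, with 16.2% and 14.7% over all genes, and their median interaction was -0.13. Replication and cell cycle genes had 0 calls of 23, with a median of 0.15.

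**Figure D4:**
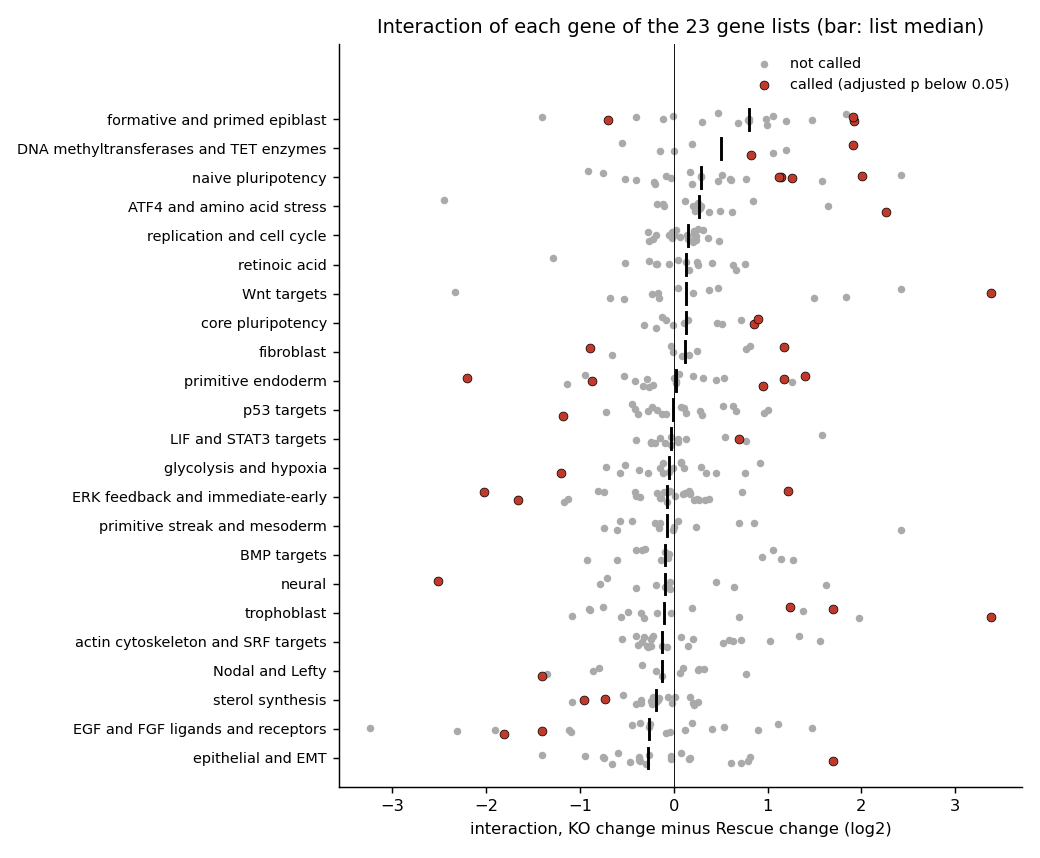
Each point is the interaction (log2) of 1 gene in 1 of 23 gene lists, ordered by list median, which the bar marks. Filled red points passed the limma test. The formative list has the highest median, 0.80, and most lists have 0 to 3 called genes.

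The 6 arrays titled 8h2h were not used to find these genes, and their KO minus Rescue difference was read in the same lines and on the same slides. By title these arrays had a further 2 h, and the labels disagree on which arrays had the Mek inhibitor. They are another condition and not a repeat of 8h, so a difference lost there is not a failed repeat. One of the 6, KO on slide b, had a high background, with 88.6% of probes above background against 46.6% to 63.8% on the other 17 arrays of the series. Over all genes 401 were called there with 6 arrays (2.54%) and 3281 with slide b left out (20.8%), a fit of 4 arrays that leans on the variance shared across genes. Of the 207 genes that differed at 8h only, 191 had the sign of their 8h difference with 6 arrays and 203 with 4. Of these 23 were called with 6 arrays and 154 with 4. Over all genes tested 78.5% and 85.2% had the sign of their 8h difference. These shares are not like for like, because the 207 were chosen for a called 8h difference. Its median absolute value was 1.43 in them and 0.27 over all genes. No comparison with other genes called at 8h was made. The classes called at both times were also chosen for a called 8h difference.

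The other classes were read on the same arrays. Of the 81 genes with one sign at both times, 79 with 6 arrays and 81 with 4 had that sign, and 35 were called with 6 and 70 with 4. Of the 86 genes with opposite signs, 72 with 6 arrays and 73 with 4 had the sign of the 8h difference. These are 83.7% and 84.9%, beside 78.5% and 85.2% over all genes tested. With 6 arrays 4 were called and with 4 arrays 26, 25 of the 26 with that sign. The 105 genes that differed at 0h only had a median absolute difference of 0.34 on the 4 arrays, against 0.28 at 8h and 1.31 at 0h, and 5 were called with 6 arrays and 19 with 4. Over all genes 2.54% were called with 6 arrays and 20.8% with 4. The sign of the 8h difference was kept in 79 of the 105 with 6 arrays (75.2%) and in 70 with 4 (66.7%). By gene, with slide b left out, Ano1 differed by -3.75, Cited1 by -3.09, Mks1 by -1.63, Dnmt3a by 1.28 and Efr3b by 1.84. Ackr3, at -0.24, and Skor1, at 0.67, were nearer to 0 than the -2.02 and 1.58 of the arrays titled 8h.

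**Figure D5:**
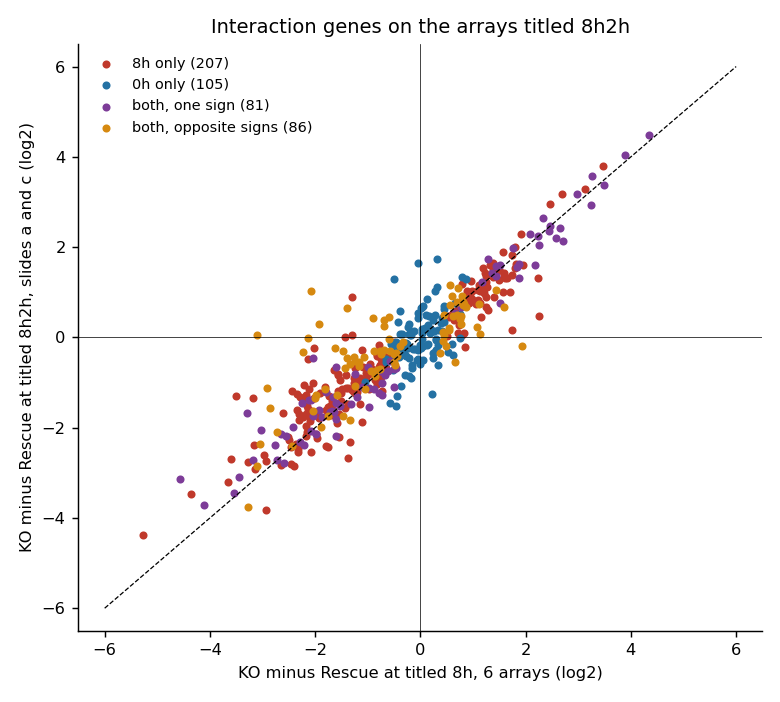
KO minus Rescue difference of the interaction genes on the arrays titled 8h (horizontal axis, 6 arrays) and on those titled 8h2h of slides a and c (vertical axis, 4 arrays), in log2 units. The dashed line marks equal differences. Of the genes that differed at 8h only, 203 of 207 lie in the quadrants of equal sign, and those that differed at 0h only cluster around the centre.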

How the data were processed

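Total RNA (100 ng) was labelled for 1-colour arrays, per the labels' protocols, and spots were quantified with Agilent Feature Extraction 12.0.1.1, per the file headers. The authors deposited processed intensity for each spot on a linear scale, background-subtracted and detrended within the array and not scaled between arrays, per the file headers. Their table of values held the same intensity and gave identical calls. 0 spots were saturated.

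From these, log2 processed intensity minus the 75th percentile of non-control spots was taken on each array. Control spots and outlier spots were left out. Of 22935 probes of named genes that passed the background filter given next, 80 were left out for outlier spots. The brightest of the remaining probes stood for a gene. Genes entered the test where some group had 3 of 3 arrays well above background. limma 3.58.1 in R 4.3.3 fitted 4 group means with slide letter as a block, since the letters mark shared slides, per the file headers. Deviations from group means correlated above 0.1 in 12 of 18 same-slide pairs and in 3 of 36 others. Deviations within a group sum to 0, which pushes the other pairs downward, so these counts are not like for like. On slide b the pairs within a line gave 0.35 (Rescue) and 0.33 (KO), and those between lines -0.039 to 0.045. A pairing by line and letter was not fitted. Benjamini-Hochberg adjustment covered all 15775 genes. The fit was also run on simulated data with independent noise and no floor under dim signals. That run does not cover the filter or genes with an unread group. The number of arrays limits the precision.

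Named genes were the highest and lowest interactions of each class read in every group, called list members, the most extreme genes with bounds, and chosen regulators. A bound sets the brighter mean against the lowest readable signal. The members and lists were chosen with earlier results of these data known.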

Additional observations from a re-analysis of the deposited data

Results flagged for a closer look

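The response of the lines differed, by the limma interaction test, for 479 genes, and 42 of them changed in opposite directions, each change being called in its own line. Over all genes tested 44 did so. The 8 with the largest interactions among those read in all groups include Kit (-2.45), Cphx1 (2.12), Elovl7 (-2.29) and Ackr3 (-2.05), described above. Atp6v0a4, a proton pump subunit, had an interaction of -2.24, with -1.59 in KO and 0.66 in Rescue. Scgb3a1, a secretoglobin, had 2.08, with 0.92 in KO and -1.15 in Rescue. Duoxa1, a maturation factor for dual oxidase, had -2.07, with -1.22 in KO and 0.85 in Rescue. Dusp14, a dual-specificity phosphatase, had -2.05, with -1.01 in KO and 1.04 in Rescue.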

How the results depend on the processing

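Each array weighed heavily on the counts. Leaving out a slide or an array gave 0 to 587 interaction genes, 1473 to 5362 line differences at 8h and 1075 to 3567 at 0h; the classes ran over 0 to 216 (8h only), 0 to 174 (0h only), 0 to 102 (one sign) and 0 to 95 (opposite signs). The deposited table gave 479 calls, quantile normalization 403, the mean of probes 519, all 18 arrays 481, a trended robust prior 537 and a random slide block 601. Without the replicate block 441 were called, 386 of them among the 479, with 3850 at 8h and 3349 at 0h. Without scaling 234 were called, with 2370 at 0h and classes of 112, 52, 20 and 50, in the order above. Without a filter on dim probes 193 were called, with 6809 at 8h, 6196 at 0h and 76, 26 and 32 in the first 3 classes. A 2-fold minimum left 7, with 394 at 8h, 298 at 0h and classes of 5, 1, 0 and 0, and 297 genes passed it at an unadjusted p below 0.05. With normexp 464 were called, 278 of them among the 479, and the opposite-sign class held 42. Some alternatives were added after seeing the data. All 18 arrays but the high-background one, which the main fit did not use, gave 996 (416, 243 and 208 in the first 3 classes). Genes read in every group gave 343 (opposite-sign class 56). A common floor gave 614 (opposite-sign class 55), and under it 433 of the 479 had the same sign. Of 77 called genes considered by name, 36 lost the call without the filter, 26 without scaling, 13 with normexp, 12 with the common floor, 10 without the replicate block, 6 with quantile normalization and 76 with the 2-fold minimum. Among those described, Pcsk2, Cobl, Nanog, Foxd3, Sox4, Col5a1 and Insig1 lost it without the block, Pou3f1, Inhbb, Smad3, Tet1, Steap3 and Cobl were among those lost without the filter, and Wnt6, Nr0b1, Amn, Cdkn1a, Dusp4 and Msmo1 among those lost without scaling. The causes of these shifts were not tested. Dim signal limits the KO arrays most.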
